A study of Vitis vinifera with 24 samples.

Results

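The genes described here are 87 grapevine genes whose transcripts increased between mid-ripening and ripeness in unfertilized Sauvignon blanc berries of both 2013 and 2014. They were chosen from the 25334 genes present in both deposited expression tables, of which 16899 had a mean of at least 0.5 RPKM (reads scaled by transcript length and library size) in each year. In the control of both years, the mean log2(RPKM + 0.5) had to be at least 0.6 higher at (v + 35) than at (v + 28), where v is mid-veraison, the time when berries soften, and 28 and 35 are days. All 3 libraries at (v + 35) also had to lie above all 3 at (v + 28). The members make up 0.515% of the 16899 genes. Because control values chose them, the change in the control is given as a description only, and the same change was tested in the berries of fertilized vines. This test took the spread of a gene from all 12 libraries of a year. The control libraries that chose the members thus entered its SE and p. The filter of 0.5 RPKM also used all 12 libraries of a year, so the soil N100 libraries had a part in the choice. A low gene could pass it through its ripe libraries alone. *VIT_13s0019g02760* averaged 0.650 RPKM in 2013, with group means of 1.30 (soil N100) and 1.26 (control) at (v + 35). Its means at (v + 28) were 0.0107 and 0.0294 RPKM.

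Whole berries came from field-grown Sauvignon blanc vines of a Bordeaux vineyard, either with 100 U of nitrogen per hectare given to the soil in applications at bud break and flowering (soil N100) or without this addition (control). Each of the 8 groups of year, treatment and stage had 3 libraries, 24 in all: soil N100 at (v + 35), soil N100 at (v + 28), control at (v + 35) and control at (v + 28), in 2013 and in 2014. The clone and the rootstock of the vines were not the same in the 2 years, so that season and plant material cannot be told apart. The libraries held 29.6 to 80.0 M reads in the listed genes. The least covered member averaged 12.4 reads per library in 2013, and the least covered one of 2014 averaged 31.3, with fewer in single libraries. A berry holds skin, flesh and seeds, and a bulk library cannot tell more cells of a type from more RNA per cell.

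Ripening in the grape berry starts at veraison, when the berry softens, loads sugar and loses acids, and by ripeness it is dominated by sugar storage, cell wall remodelling and the products of secondary metabolism. Pathogenesis-related proteins such as osmotin-like proteins and chitin-binding proteins are known to accumulate in the same period, also in sound fruit. Nitrogen supplied to the soil is taken up as nitrate or ammonium, assimilated into amino acids and carried to the fruit. Of the 87 members, 12 carry a description in the gene tables of the study, which list genes chosen for their response to nitrogen on these same samples. These descriptions are used below, and the other 75 members are given by their ID.

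In soil N100 berries of 2013 all 87 members had a positive LFC (log2 fold change of RPKM + 0.5) at (v + 35) against (v + 28), and 60 passed the limma test with an LFC of 0.6 or more (adjusted p up to 0.05; called up-regulated from here on), while 0 were down-regulated. Among all 17298 genes in the fit, the calls made up 3.72% higher and 4.58% lower, and 39.7% had a positive LFC. The LFC of the members lay between 0.26 and 3.39, with a median of 1.18 (quartiles 0.82 and 1.55), beside a median of -0.08 over all tested genes. It was at least 1 in 52 members and at least 2 in 11, and 72 members passed at an unadjusted p, against 4.31% of all genes. With a filter of 2 RPKM in place of 0.5 RPKM, which left out 29 members, 41 members were called up-regulated. All 3 libraries at (v + 35) lay above all 3 at (v + 28) in 69 members, against 11.9% of all tested genes. In the control, where the rule itself required a rise, the median LFC was 1.15 (0.62 to 2.95), and 15.2% of all genes had ripe libraries that all lay above the earlier ones. Rescaling the libraries by median ratios moved the split of calls over all genes to 855 higher and 533 lower, from 643 higher and 792 lower, without ending the positive LFC of any named member.

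In soil N100 berries of 2014 all 87 members again had a positive LFC, beside 49.7% of the 17171 tested genes, but only 4 of them were up-regulated and 0 were down-regulated. The calls over all genes were 0.0874% higher and 0.646% lower, so that the 4 members were 26.7% of the genes called higher. The LFC lay between 0.08 and 2.49, with a median of 0.68 (quartiles 0.53 and 1.09), beside 0.00 for all tested genes. The libraries of the stages did not overlap in 64 members, against 19.4% of all genes, and 47 members passed an unadjusted p of 0.05 with an LFC of at least 0.6, against 0.961%. The count of 4 was smaller whichever soil N100 library was left out: it was 0 without replicate 1 or 3 of either stage, 1 without replicate 2 at (v + 28) and 2 without replicate 2 at (v + 35). With only the 6 soil N100 libraries of the year in the fit it was 22, and the same fit of 2013 called 52 members in place of 60. In 2013, leaving out any 1 soil N100 library gave counts between 47 and 62, with 47 in the absence of replicate 1 at (v + 28). In the control of 2014 the median LFC was 0.92 (0.60 to 3.32), and 8.42% of all genes met the same condition on the libraries.

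**Figure D1:**
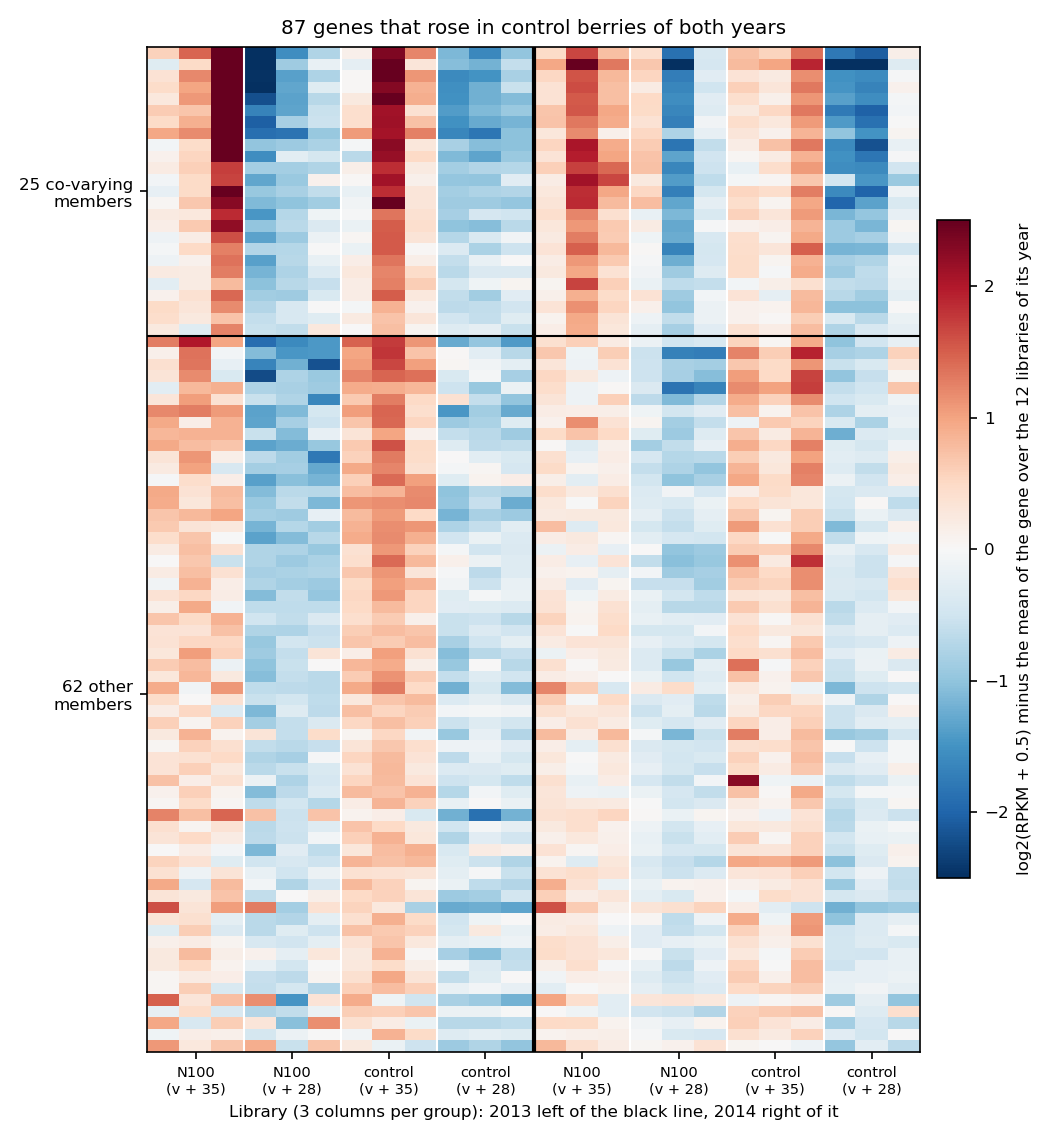
Heat map of the 87 members (rows) in the 24 libraries (columns, in groups of 3, the soil N100 groups left of the control groups in each year). Color gives log2(RPKM + 0.5) minus the mean of the gene over the 12 libraries of its year, red for higher and blue for lower, and rows are ordered by the mean LFC in soil N100 within 25 co-varying members, which followed a stretch of chromosome 13 genes from library to library, and the 62 others. The (v + 35) groups are mostly red and the (v + 28) groups mostly blue under both treatments, and single libraries stand out in the 25 upper rows.

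Taking the years together, 52 members had no overlap between the stages in soil N100 in both years, against 3.92% of the 16899 genes tested in both, and 47 had an LFC of at least 0.6 in both years, against 0.669%. A positive LFC in both years was found in 23.0% of all tested genes. At the adjusted p, 3 members were called in both years out of 5 genes in all (0.0296%). Across the 87 members the LFC of 2014 and of 2013 in soil N100 had Pearson's r of 0.57 and Spearman's rho of 0.61, beside Pearson's r of 0.35 over all 16899 genes. Genes are not independent replicates and the members of a stretch share their libraries, so these values are descriptions. In 6 members the libraries of the stages overlapped in both years, and 2 of these, *VIT_16s0098g01060* and *VIT_18s0166g00070*, were named after their values were seen.

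**Figure D2:**
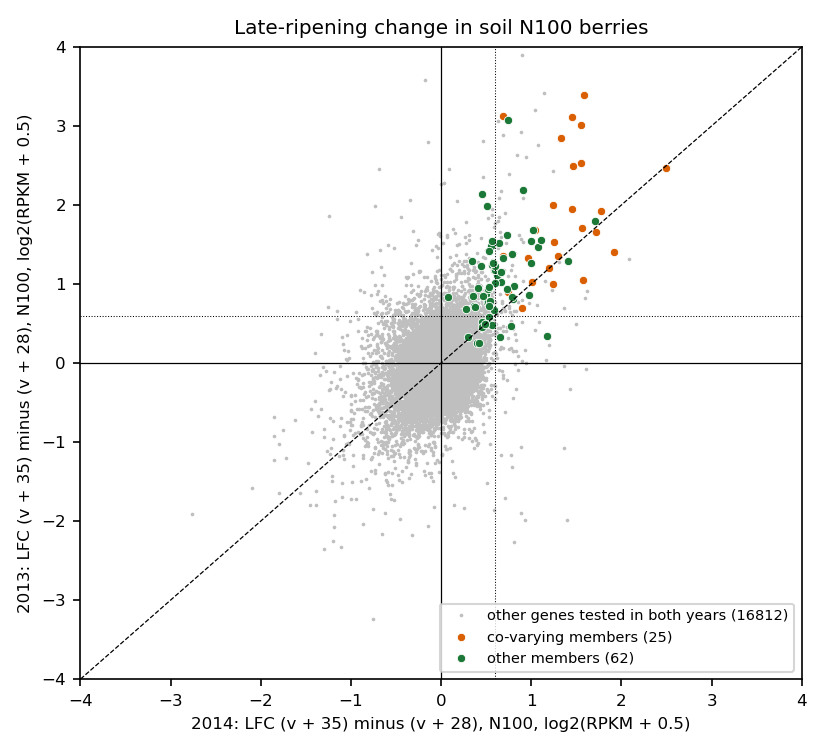
LFC at (v + 35) against (v + 28) in soil N100 berries of 2014 (x axis) and of 2013 (y axis), on the log2(RPKM + 0.5) scale, for 16812 other tested genes (grey), 25 co-varying members (orange) and 62 other members (green). Every member lies right of 0 and above 0, and 69 of the 87 lie above the dashed line of equal change. Dotted lines mark 0.6, and 1 grey gene falls outside the axes.

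The 3 members called in soil N100 in both years have no description in the sources used here. *VIT_06s0004g05460* had 117, 78.7 and 105 RPKM at (v + 35) in soil N100 berries of 2013, against 28.4, 37.9 and 37.6 RPKM at (v + 28) (LFC 1.52, SE 0.16, adjusted p = 0.000224 from limma). In 2014 it had 67.3, 58.3 and 65.8 RPKM at (v + 35), against 38.8, 46.7 and 36.9 RPKM at (v + 28) (LFC 0.64, SE 0.10, adjusted p = 0.0231 from limma). The lowest ripe library was above the highest earlier library in each year, and the call of 2014 was lost without replicate 1 or 3 of either stage. In the control its mean levels were 118 RPKM at (v + 35) and 34.5 RPKM at (v + 28) in 2013, and 61.7 and 38.0 RPKM at these stages in 2014.

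*VIT_02s0025g03780* had 3.38, 5.98 and 3.63 RPKM at (v + 35) in soil N100 berries of 2013, against 1.65, 1.37 and 0.522 RPKM at (v + 28) (LFC 1.55, SE 0.37, adjusted p = 0.0112 from limma). A year later it had 12.0, 8.65 and 14.4 RPKM at (v + 35), against 5.78, 4.12 and 5.45 RPKM at (v + 28) (LFC 1.10, SE 0.20, adjusted p = 0.0314 from limma). Both years again showed no overlap, and the call of 2014 remained only when replicate 2 at (v + 35) was the library left out. *VIT_17s0000g01360* had 1.84, 2.45 and 1.13 RPKM at (v + 35) in 2013, against 0.450, 1.17 and 0.819 RPKM at (v + 28), so that 1 library of each stage overlapped (LFC 0.81, SE 0.22, adjusted p = 0.0204 from limma). The values of 2014 were 3.22, 2.91 and 2.98 RPKM at (v + 35), against 1.46, 1.90 and 1.27 RPKM at (v + 28) (LFC 0.80, SE 0.17, adjusted p = 0.0492 from limma). The call of *VIT_17s0000g01360* in 2014 was lost whichever library of 2014 was left out, and in 2013 without replicate 1 at (v + 28) or replicate 1 or 2 at (v + 35).

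The fourth member called in 2014, *VIT_02s0025g01450*, was named after its values were seen. It had 160.4, 171 and 160 RPKM in soil N100 at (v + 35), against 100.34, 86.1 and 99.2 RPKM at (v + 28) (LFC 0.78, SE 0.12, adjusted p = 0.0187 from limma). The spread within each stage was small, with SDs of 6.18 and 7.91 RPKM, and the libraries did not overlap. In 2013 its LFC was 0.47 (SE 0.15, adjusted p = 0.0455 from limma), under the 0.6 that a call required.

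**Figure D3:**
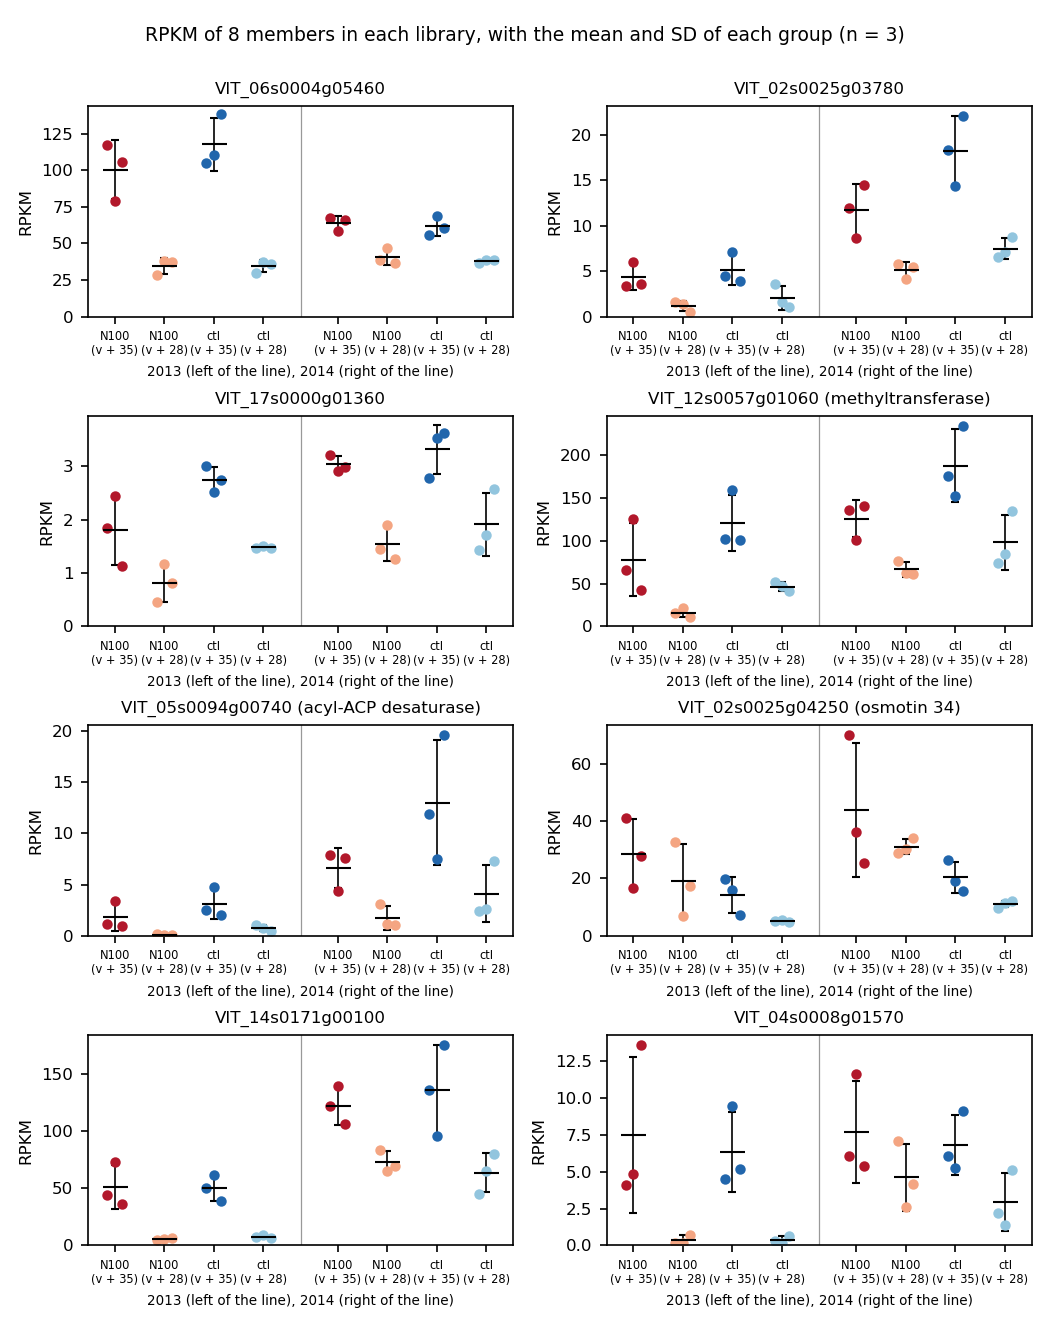
RPKM of 8 members in each of the 24 libraries (points), with the mean (bar) and SD (whiskers) of each group of 3. In each panel 2013 is left and 2014 right of the grey line, and "ctl" is the control. The stages separate in both treatments for *VIT_06s0004g05460* and *VIT_12s0057g01060*, whereas osmotin 34 (*VIT_02s0025g04250*) overlaps between the stages in soil N100 in both years.

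Of the 12 described members, 6 were up-regulated in soil N100 in 2013 and 0 in 2014 in the limma fit, with 7 and 6 at an unadjusted p and 6 and 0 with limma-voom. They made up 2.11% of the 569 described genes tested in both years, and they are genes that the study selected for a difference between treatments, so their number is not independent of these samples. Their functional classes were scattered: the class of stress genes held 3 members of 38 tested genes, the unassigned class 2 of 114, and cell wall (34 tested), hormone metabolism (18), lipid metabolism (12), protein (38), development (29), cell (14) and miscellaneous enzymes (65) held 1 each. The classes of photosystem (29 tested), secondary metabolism (20), transport (36), signalling (23) and RNA (45) held 0.

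The 3 largest LFCs of the described members in soil N100 of 2013 were those of genes described as enzymes or as catalytic proteins. The S-adenosylmethionine-dependent methyltransferase gene *VIT_12s0057g01060*, of a family that transfers methyl groups to small molecules, had 65.6, 125 and 42.8 RPKM at (v + 35) in soil N100 berries of 2013, against 15.4, 21.2 and 10.6 RPKM at (v + 28) (LFC 2.19, SE 0.34, adjusted p = 0.00131 from limma). In 2014 it had 136, 101 and 140.4 RPKM at (v + 35), against 76.5, 62.4 and 60.7 RPKM at (v + 28), and its LFC of 0.91 did not pass the test (SE 0.23, adjusted p = 0.0732). The stages were apart in both years, and in 2013 the soil N100 mean at (v + 28) of 15.7 RPKM lay under the control mean of 46.5 RPKM at this stage.

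The desaturase gene *VIT_05s0094g00740*, described as an acyl-carrier-protein desaturase, an enzyme that puts a double bond into a fatty acid, was at very low levels in soil N100 at (v + 28) in 2013. It had 1.17, 3.44 and 0.968 RPKM at (v + 35), against 0.221, 0.0605 and 0.0682 RPKM at (v + 28) (LFC 1.8, SE 0.36, adjusted p = 0.00476 from limma). A year later it had 7.90, 4.35 and 7.58 RPKM at (v + 35), against 3.14, 1.13 and 1.08 RPKM at (v + 28) (LFC 1.71, SE 0.46, adjusted p = 0.088 from limma). In the control, used by the rule, its LFC was 1.47 in 2013 and 1.60 in 2014. The gene *VIT_05s0077g01300*, described as VEP1 after an Arabidopsis gene named for vein patterning, averaged 3.55 ± 0.669 RPKM in soil N100 at (v + 35) and 1.05 ± 0.168 RPKM at (v + 28) in 2013 (SD, n = 3; LFC 1.38, SE 0.20, adjusted p = 0.00108 from limma). In 2014 its averages were 6.65 ± 1.18 RPKM at (v + 35) and 3.65 ± 0.808 RPKM at (v + 28) (LFC 0.79, adjusted p = 0.0995 from limma).

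*VIT_17s0000g05060*, described as COBL4 or IRX6, which in Arabidopsis takes part in making the cellulose of secondary walls, had 0.672, 1.54 and 0.492 RPKM at (v + 35) in soil N100 berries of 2013, against 0.175, 0.181 and 0.174 RPKM at (v + 28) (LFC 0.98, SE 0.21, adjusted p = 0.00746 from limma). The values of 2014 were 1.78, 1.36 and 1.82 RPKM at (v + 35), against 1.01, 0.609 and 0.5999 RPKM at (v + 28) (LFC 0.81, SE 0.19, adjusted p = 0.0583 from limma). The proline-rich family gene *VIT_17s0000g06700* had an LFC of 1.27 in 2013 (SE 0.31, adjusted p = 0.0131 from limma) and of 1.00 in 2014 (SE 0.26, adjusted p = 0.0775). The matrix metalloproteinase gene *VIT_14s0066g01950*, for an enzyme that cuts extracellular proteins, had an LFC of 0.69 in 2013 (SE 0.19, adjusted p = 0.0235 from limma), and this call was lost without replicate 1 or 3 at (v + 28) or replicate 1 or 2 at (v + 35). In 2014 its libraries overlapped, at 3.90, 4.70 and 5.13 RPKM at (v + 35), against 3.99, 3.39 and 3.68 RPKM at (v + 28) (LFC 0.27). *VIT_07s0191g00050*, described as peroxidase 17, of the class III peroxidases that act in the cell wall, had an LFC of 0.46 in each year and did not pass the test (adjusted p = 0.115 in 2013 and 0.147 in 2014 from limma).

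None of the 3 pathogenesis-related members passed the test in soil N100 in either year, and 0 did so at an unadjusted p or with limma-voom. Osmotin 34 (*VIT_02s0025g04250*), a thaumatin-like protein of the antifungal PR-5 type, had 41.2, 16.7 and 27.7 RPKM at (v + 35) in soil N100 berries of 2013, against 32.9, 7.07 and 17.3 RPKM at (v + 28) (LFC 0.72, SE 0.49). In the control of that year it had 19.7, 15.9 and 7.28 RPKM at (v + 35), against 5.24, 5.35 and 4.96 RPKM at (v + 28). At (v + 28) the 3 soil N100 libraries thus spread over a wider range than the control libraries and all lay above them. In 2014 it had 70.1, 36.1 and 25.5 RPKM in soil N100 at (v + 35), against 28.9, 30.2 and 34.1 RPKM at (v + 28), where the control had 26.3, 19.1 and 15.8 RPKM and 9.75, 11.4 and 12.0 RPKM at the same stages.

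The gene of the antimicrobial protein PR4 (*VIT_14s0081g00030*) was among the most abundant members, with 658, 373 and 498 RPKM at (v + 35) in soil N100 berries of 2013, against 583, 212 and 505 RPKM at (v + 28) (LFC 0.32, SE 0.33). A year later it had 852, 639.7 and 552 RPKM at (v + 35), against 503, 520.4 and 622 RPKM at (v + 28) (LFC 0.29, SE 0.19). The stages overlapped in both years. *ATPRB1* (*VIT_03s0088g00710*), a PR-1 type gene, gave LFCs of 0.84 in 2013 (SE 0.56) and 0.08 in 2014 (SE 0.27), the lowest of all members in 2014. For these 3 genes the adjusted p from limma was 0.303, 0.505 and 0.295 in 2013 and 0.492, 0.386 and 0.889 in 2014. In 1 of the years the direction of the LFC of each gene rested on a single library. Without replicate 1 at (v + 35) of 2014 it was -0.032 for osmotin 34 and -0.23 for *ATPRB1*. Without replicate 2 at (v + 28) of 2013 it was -0.13 for *PR4*. In the other year the LFC stayed positive whichever soil N100 library was left out. Its lowest values were 0.16 for osmotin 34 and 0.10 for *ATPRB1* in 2013, and 0.12 for *PR4* in 2014. Of the 18 described genes with pathogen-response names, these 3 were members. The summed level of the 18 in soil N100 was 7888 to 10612 RPKM at (v + 35) and 6401 to 9784 RPKM at (v + 28) in 2013, and 9319.5 to 10339.7 RPKM and 10185 to 11319 RPKM in 2014.

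The phloem protein gene *VIT_14s0060g02000*, described as PP2-B13, a carbohydrate-binding protein, had 22.0, 15.6 and 25.6 RPKM at (v + 35) in soil N100 berries of 2013, against 15.3, 6.06 and 15.1 RPKM at (v + 28) (LFC 0.85, SE 0.32, adjusted p = 0.0763 from limma). The values of 2014 were 63.7, 65.6 and 71.0 RPKM at (v + 35), against 50.3, 43.3 and 51.6 RPKM at (v + 28) (LFC 0.46, SE 0.13, adjusted p = 0.0942 from limma). The stages did not overlap in either year although neither LFC passed the test. *VIT_08s0040g01860*, described as an unknown protein, overlapped in 2013 (LFC 0.33, adjusted p = 0.306 from limma) and not in 2014 (LFC 0.65, adjusted p = 0.0827).

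Levels among the members spanned a wide range. The median over members of the mean RPKM was 7.52 in soil N100 at (v + 35) and 1.79 at (v + 28) in 2013, against 7.38 and 2.19 RPKM in the control. In 2014 these medians were 12.4 and 5.70 RPKM in soil N100 and 12.8 and 5.55 RPKM in the control. Means over a year reached from 0.537 to 3277 RPKM in 2013 and from 0.847 to 5044 RPKM in 2014. The most abundant member, *VIT_19s0090g01350*, had 3777, 4488 and 3392 RPKM at (v + 35) in soil N100 berries of 2013, against 2790.1, 2336 and 3174 RPKM at (v + 28) (LFC 0.49, SE 0.17, adjusted p = 0.0542 from limma). In 2014 it had 5358, 6490.5 and 4743 RPKM at (v + 35), against 4289, 3101 and 4450.4 RPKM at (v + 28) (LFC 0.49, SE 0.22, adjusted p = 0.233 from limma). Its stages did not overlap in either year, but the change was under 0.6.

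Among the other abundant members, *VIT_10s0116g00570* averaged 192 ± 46.3 RPKM in soil N100 at (v + 35) and 71.7 ± 16.9 RPKM at (v + 28) in 2013 (SD, n = 3; LFC 1.41, SE 0.19, adjusted p = 0.000657 from limma). In 2014 it averaged 471 ± 32.5 RPKM and 325 ± 25.6 RPKM at these stages (LFC 0.54, SE 0.21, adjusted p = 0.186 from limma). *VIT_07s0129g00930* was up-regulated in 2013 (LFC 0.77, adjusted p = 0.0107 from limma) and had an LFC of 0.51 in 2014. *VIT_07s0005g00170* did not pass the test in either year (LFC 0.53 in 2013 and 0.45 in 2014). At the low end of the changes were *VIT_15s0048g02750* (LFC 0.26 in 2013 and 0.40 in 2014) and *VIT_17s0000g00680* (LFC 0.26 and 0.42 in these years). *VIT_17s0000g00680* had 2.91, 0.807 and 2.16 RPKM at (v + 35) in soil N100 berries of 2013, against 1.63, 0.344 and 3.38 RPKM at (v + 28), and its LFC of 2013 was -0.33 without replicate 2 at (v + 28) and -0.035 without replicate 1 at (v + 35).

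At the threshold of the rule, the members nearest above 0.6 were *VIT_08s0040g03390*, with a control LFC of 0.60 in 2014 and 0.75 in 2013, and *VIT_14s0081g00030*, with 0.62 and 0.73. Just outside were *VIT_01s0026g02100*, with 0.59 in 2014 and 0.80 in 2013, and *VIT_11s0016g02380*, with 0.58 and 2.11. With any size of rise allowed, 458 genes had no overlap in the control of both years.

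The rise in soil N100 was smaller in 2014 than in 2013 for most members. The difference of the LFCs, 2014 minus 2013, had a median of -0.39 over the members, beside 0.07 over all genes tested, and 69 of the 87 had the smaller LFC in 2014. In the test of this difference 7 members were called, all with the smaller LFC in 2014, where 1.73% of all genes were called lower and 2.58% higher. The largest differences were those of *VIT_04s0008g01570* and *VIT_14s0171g00100*. In the control, used by the rule and not tested, the median LFC of the members was also smaller in 2014 (0.92) than in 2013 (1.15). *VIT_14s0171g00100* had 43.7, 72.6 and 35.9 RPKM at (v + 35) in soil N100 berries of 2013, against 4.36, 5.58 and 6.21 RPKM at (v + 28) (LFC 3.07, SE 0.24, adjusted p = 3.44e-05 from limma). A year later it had 121, 139 and 106 RPKM at (v + 35), against 83.3, 65.1 and 69.3 RPKM at (v + 28) (LFC 0.74, SE 0.23, adjusted p = 0.122 from limma). In the control the mean was 135 and 63.4 RPKM in 2014 and 50.01 and 7.42 RPKM in 2013 at (v + 35) and (v + 28). The tables of the years were normalized apart, so levels of the 2 years are given side by side and not compared.

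*VIT_13s0067g02300* averaged 317 ± 5.70 RPKM in soil N100 at (v + 35) and 233 ± 28.1 RPKM at (v + 28) in 2014, and 152 ± 11.4 RPKM and 35.2 ± 12.2 RPKM in 2013 (SD, n = 3). *VIT_04s0023g03600* averaged 268 ± 1.63 RPKM and 183 ± 21.7 RPKM in 2014, and 112 ± 11.3 RPKM and 40.5 ± 11.4 RPKM in 2013, at (v + 35) and (v + 28). *VIT_04s0008g01570* had 6.05, 11.6 and 5.36 RPKM at (v + 35) in 2014, against 7.12, 2.62 and 4.15 RPKM at (v + 28), whereas in 2013 it had 4.10, 4.84 and 13.6 RPKM, against 0.141, 0.155 and 0.732 RPKM. Its stages overlapped in 2014 and were far apart in 2013. The other 3 members called were *VIT_06s0004g05460*, *VIT_18s0001g14000* and *VIT_19s0014g03390*.

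The gene IDs give the chromosome, the scaffold and the order of genes along it. By these IDs 26 members lay at most 10 gene numbers from another member on the same scaffold, in 8 stretches, in which up to 8 tested genes that are not members also lay. How many such stretches other gene sets of this size would hold was not tested. Chromosome 13 held 13.8% of the members and 5.40% of the tested genes, because 10 members lay in 1 stretch of scaffold 19 between *VIT_13s0019g02740* and *VIT_13s0019g03160*, in which 14 genes were tested in both years. In soil N100 of 2013 the LFC of these 10 was between 1.20 and 3.11 (median 1.82) and 5 were up-regulated, with 10 at an unadjusted p and 9 with limma-voom. The count of 5 was 3 and the median 1.08 without replicate 3 at (v + 35), 9 and 2.38 without replicate 1 at (v + 35), and 4 to 7 without any 1 of the other libraries. In 2014 it was between 0.68 and 1.77, and 0 were called at the adjusted p from limma, with 9 at an unadjusted p and 0 with limma-voom. The 4 tested genes between them that are not members split: *VIT_13s0019g02780* was up-regulated in 2013 (LFC 2.44, adjusted p = 0.00719 from limma), *VIT_13s0019g03020* was down-regulated (LFC -0.83, adjusted p = 0.00229), and *VIT_13s0019g02910* (LFC -0.52) and *VIT_13s0019g03060* (LFC 0.31) were not called. The sources used here give none of these 10 members a description. The study kept only reads that aligned to 1 place, so reads shared by near-identical copies would be missing from the values. Whether neighbours of the stretch are such copies was not analysed here.

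**Figure D4:**
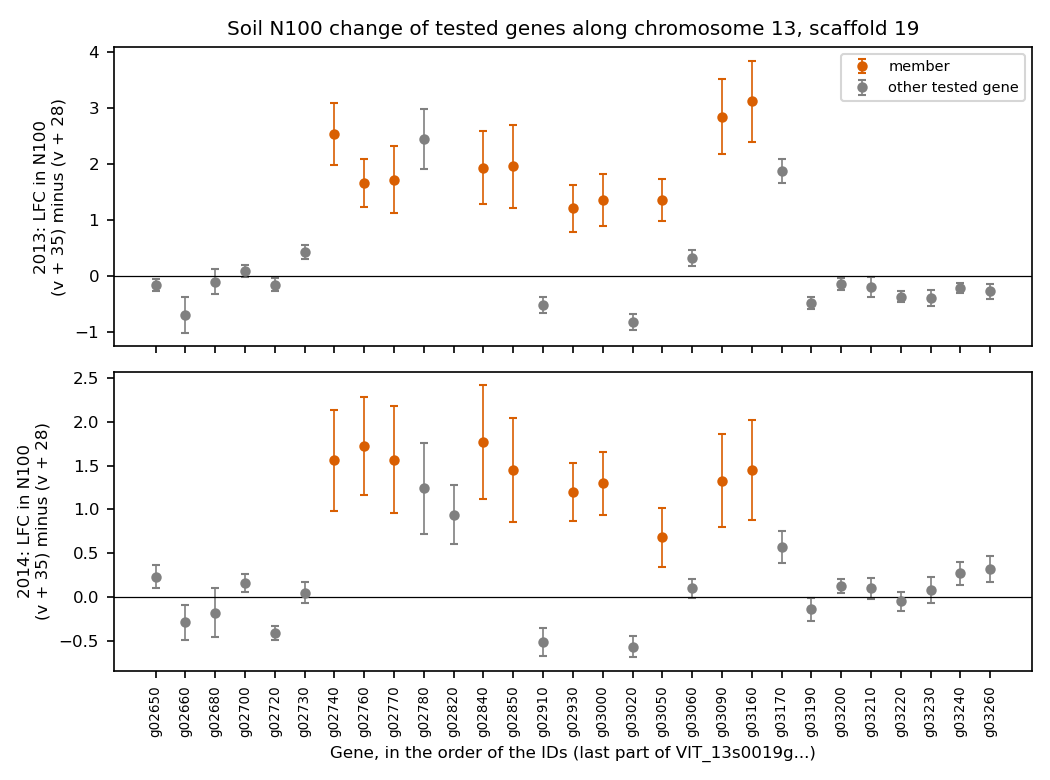
LFC in soil N100 at (v + 35) against (v + 28), with its SE (whiskers), of the tested genes along scaffold 19 of chromosome 13, in the order of their IDs, for 2013 (upper panel) and 2014 (lower panel). The 10 members (orange) lie between 1.20 and 3.11 in 2013 and between 0.68 and 1.77 in 2014, and the genes outside the stretch lie between -0.70 and 0.42 in 2013 and between -0.41 and 0.32 in 2014, except *VIT_13s0019g03170* at 1.87 and 0.57.

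Summed over the 10 genes, the level was 110.0, 147 and 447 RPKM at (v + 35) in soil N100 berries of 2013, against 38.8, 59.1 and 93.5 RPKM at (v + 28). In the control it was 120.3, 383 and 150 RPKM at (v + 35), against 63.2, 80.8 and 98.3 RPKM at (v + 28). In each treatment 1 ripe library, replicate 3 of soil N100 and replicate 2 of the control, thus stood far above the others. In 2014 the sum was 401, 834 and 534 RPKM in soil N100 at (v + 35), against 356, 129 and 250.2 RPKM at (v + 28), and in the control 439, 357 and 654 RPKM, against 161, 165 and 312 RPKM. The ripe libraries were above the earlier ones in every group, with the lowest ripe library of 2014 close to the highest earlier one.

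Genes elsewhere in the genome moved with this stretch from library to library. The mean of each of the 8 groups was subtracted first. Each of the 10 genes then correlated with the mean of the other genes of the stretch at Pearson's r of 0.92 to 0.99 over the 24 libraries. Of the 77 members outside the stretch, 15 reached r of at least 0.8 with the mean of the 10. This was 19.5%, against 0.178% of 16812 tested genes that are not members. The median r of the 77 was 0.32. The highest were *VIT_07s0005g01980* and *VIT_19s0085g01050*, both at 0.98, and 6 of the 15 lay in other stretches of neighbours, on chromosomes 4, 7 and 19. The 24 libraries include the control ones of the rule and the soil N100 ones of the test. The value of 0.8 was set after the correlations were seen, so these are descriptions.

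The 25 co-varying members, sorted out by their deviations in these same libraries, had a larger median LFC than the 62 others in the full fit of each year. Such sorting favours genes with a large spread, so the larger SEs of the 25 are a description and no test result. The median LFC of the 25 in soil N100 was 1.68 in 2013 (median SE 0.48) and 1.33 in 2014 (median SE 0.50), with 16 and 0 called. The 62 others had 0.96 (median SE 0.21) and 0.56 (median SE 0.20), with 44 and 4 called. At an unadjusted p, 23 of the 25 and 24 of the 62 passed in 2014, and with limma-voom 0 and 5 did. The median difference of a library from the mean of the (v + 28) libraries of its treatment showed where the spread lay. In soil N100 of 2013 it was 0.88, 1.29 and 2.88 at (v + 35) and -0.40, -0.01 and 0.56 at (v + 28) for the co-varying members. For the 62 others it was 1.00, 1.15 and 0.95 at (v + 35) and -0.04, -0.01 and 0.13 at (v + 28), so the ripe libraries that differed in the first set were alike in the second. In 2014 the co-varying members gave 0.80, 2.03 and 1.21 at (v + 35) and 0.83, -0.97 and 0.16 at (v + 28), and the others 0.69, 0.52 and 0.58 at (v + 35) and 0.14, -0.12 and -0.04 at (v + 28). The gap between the sets in 2013 rested on 1 library. Without replicate 3 at (v + 35) of 2013, the median LFC was 1.07 in the 25 and 1.05 in the 62 others. Of the 25, 8 were then called, and of the 62 others 45 were. The count of 16 was 9 without replicate 1 at (v + 28). In 2014 the median of the 25 was 0.97 without replicate 2 at (v + 28), 1.01 without replicate 2 at (v + 35) and 1.8 without replicate 1 at (v + 28).

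**Figure D5:**
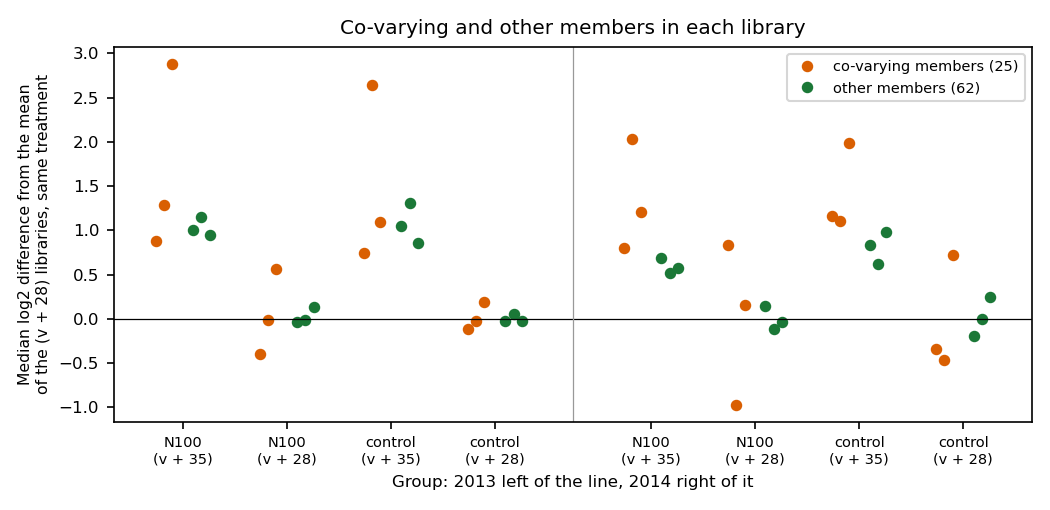
Median, over the 25 co-varying members (orange) and the 62 other members (green), of the log2 difference between a library and the mean of the (v + 28) libraries of its treatment and year. Each point is 1 library, and the sets were split by deviations in these same libraries. The orange points reach 2.88 in soil N100 and 2.64 in the control at (v + 35) in 2013 and spread over 1.8 log2 units within soil N100 at (v + 28) in 2014, while the green points stay within 0.45 of each other in every group.

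Lists of described genes that mark other cell types or tissues of the berry held 0 members. Only 12 of the 87 members have a description, and the rest could not be on these lists. The 6 genes of dividing cells summed to 96.3 to 179 RPKM in soil N100 at (v + 35) and 80.5 to 89.4 RPKM at (v + 28) in 2013, with 2 of 6 up-regulated, and to 175 to 193 RPKM and 103 to 146 RPKM in 2014, with 0 of 6 (2 at an unadjusted p, 0 with limma-voom). The 18 seed genes summed to 430.0 to 577 RPKM and 325 to 586 RPKM at these stages in 2013 and to 412 to 518 RPKM and 603 to 675 RPKM in 2014, and 1 of the 16 tested in 2013 was called higher and 2 lower. The 17 genes of green tissue summed to 389 to 903 RPKM and 501 to 754 RPKM in 2013 and to 590.2 to 728 RPKM and 681 to 792 RPKM in 2014. Every listed marker was detected in at least 1 soil N100 library of each year. The sums of the dividing-cell genes were higher at (v + 35) without overlap in both years, and those of the seed genes were lower at (v + 35) without overlap in 2014. The part of these genes in the rise of the members was not tested.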

How the data were processed

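Total RNA of whole berries was poly(A)-selected and sequenced, and the study describes the replicates as field blocks. Reads were processed with CASAVA 1.8.2, TopHat2 2.0.10, Bowtie2 2.1.0 and HTSeq 0.5.4p3 according to the submitters' processing notes. The authors deposited RPKM values, 1 table per year (25951 genes in 2013 and 26123 in 2014). Whole reads per gene were recovered from the steps of the RPKM values (100% of listed genes, tolerance 0.01 read) and used for depth and for limma-voom. 0 columns belonged to samples of another series.

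Values were tested on the log2(RPKM + 0.5) scale with limma 3.58.1 (R 4.3.3), separately for each year, with 4 group means over the 12 libraries, for genes that averaged 0.5 RPKM or more. The contrast was (v + 35) minus (v + 28) in soil N100, with Benjamini-Hochberg adjustment across the whole table, and calls needed both an adjusted p up to 0.05 and an LFC of 0.6 or more in size. A fold on this scale understates the change of low genes. The LFCs of the years were subtracted with their moderated SEs combined. Soil N100 was not tested against the control, because the control libraries chose the members. The fit was also run on simulated reads, drawn for each gene apart. The outcome is not reported here, so it bears on no call.

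The members and gene lists were chosen with earlier results of these data known. Named were described members, members called in both years (at most 10; there were 3), the 5 lowest, the 5 most abundant, those at the threshold and those whose LFC differed between years. The alternatives are given in the closing section. The gene sequences were not analysed here.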

Additional observations from a re-analysis of the deposited data

Results flagged for a closer look

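For 7 members the LFC of soil N100 berries at (v + 35) against (v + 28) differed between the years in the test of the difference itself (limma SEs combined, adjusted over 16899 genes), and in all 7 it was smaller in 2014. Given as 2014 minus 2013, the difference was -2.44 for *VIT_04s0008g01570* (SE 0.60, adjusted p = 0.0174 from limma), with an LFC of 0.69 in 2014 and 3.13 in 2013. For *VIT_14s0171g00100* it was -2.33 (SE 0.33, adjusted p = 0.000362 from limma), with 0.74 in 2014 and 3.07 in 2013. For *VIT_13s0067g02300* it was -1.69 (SE 0.32, adjusted p = 0.00489 from limma), with 0.45 and 2.14. For *VIT_18s0001g14000* it was -1.48 (SE 0.32, adjusted p = 0.00937 from limma), with 0.51 and 1.98. *VIT_19s0014g03390*, *VIT_04s0023g03600* and *VIT_06s0004g05460* differed by -0.98, -0.92 and -0.87 (adjusted p = 0.0243, 0.0242 and 0.0118 from limma). In the control, used by the rule and not tested, the LFC of these 7 was also smaller in 2014. In the order above it was 1.22, 1.08, 0.92, 1.19, 0.73, 0.81 and 0.69 in 2014. The control LFCs of 2013 were 2.95, 2.66, 2.17, 1.44, 2.08, 1.74 and 1.75. At an unadjusted p of 0.05 and a difference of at least 0.6, 13 members had a smaller and 0 a larger LFC in 2014. The share of all 16899 genes at this cut was not counted, so these 2 counts are a description only.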

How the results depend on the processing

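Of the values of single named members under the alternatives, 837 kept their direction and their side of the threshold, 31 were no longer called, 14 became called and 5 changed sign. Without replicate 1 of soil N100 at (v + 35) in 2014, osmotin 34 (*VIT_02s0025g04250*) had an LFC of -0.032 and *ATPRB1* (*VIT_03s0088g00710*) of -0.23 in that year (highest values with 1 library left out 0.69 and 0.40). Without replicate 2 of soil N100 at (v + 28) in 2013, *PR4* (*VIT_14s0081g00030*) had -0.13 and *VIT_17s0000g00680* -0.33, and without replicate 1 at (v + 35) *VIT_17s0000g00680* had -0.035 (highest 0.77). The causes were not tested.

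The median LFC of the members in 2013 was 1.37 with a pseudocount of 0.1, 0.98 with a pseudocount of 1 and 1.47 with limma-voom. Without a threshold on the LFC, 1253 genes were higher and 2785 lower in 2013, 60 were higher and 169 lower in 2014, and 6 members were called in both years. In 2014, without a filter on expression 2 genes were higher and 35 lower, with 2 members called, 1 of them in both years. With only the 6 soil N100 libraries of a year in the fit, 83 genes were higher and 275 lower in 2014, 22 members were called in 2014 and 14 in both years. At an unadjusted p these were 165 genes, 353 genes, 47 members and 43 members. With quantile normalization 28 genes were higher in 2014, 5 members were called in both years and 11 differed between the years, and with limma-voom 14 differed. With 0.4 or 1 in place of 0.6 in the rule there were 169 or 32 members.

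When 1 library was left out, 554 to 754 genes were higher and 680.0 to 1021 lower in 2013, 1 to 4 were higher and 21 to 35 lower in 2014, and the median LFC of the members was 1.05 to 1.24 in 2013 and 0.60 to 0.82 in 2014. The members called were 47 to 62 in 2013, 0 to 2 in 2014 and 0 to 3 in both years, and 5 to 9 differed between the years. Leaving out a control library gave 76 to 171 members, with 171 without replicate 3 at (v + 28) and 149 without replicate 2 at (v + 35) of 2014.

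With the replicate number as a block, 65 members were called in 2013 and 4 in 2014, with 8 genes higher and 47 lower in 2014. In 2013 the deviations of libraries of equal number had r of 0.03, 0.28 and 0.20 in soil N100 and 0.06, 0.22 and 0.10 in the control. In 2014 these were -0.24, -0.41 and 0.04 in soil N100 and -0.17, -0.34 and -0.05 in the control. All pairs were thus weakly positive in 2013 and most were negative in 2014. The numbers were not taken to pair libraries in the main fit.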
